A study of Danio rerio with 48 samples.

Results

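The genes described here are 38 genes of fatty acid oxidation and of the response to peroxisome proliferator-activated receptors (PPARs), chosen by name and grouped by role. The choice was made with earlier results of these data known. Shares of members set beside shares of all genes are therefore description and not a test. All 38 were among the 25445 genes of the count table, and all 38 were among the 20723 genes kept for testing. By role they were 5 genes of the carnitine shuttle, 2 acyl-CoA synthetases, 14 enzymes of the mitochondrial oxidation spiral, 3 genes that pass its electrons on, 10 peroxisomal genes, and 4 genes known in mammals as PPAR targets, 1 of which coats lipid droplets. As a role group, PPAR targets below means these 4 genes alone. Members of other roles, ehhadh among them, are known as PPAR targets too. Their RNA was measured by polyA-selected RNA sequencing in heads of zebrafish larvae of a mixed wild-type line, to which AB and Tupfel long fin fish are added. Larvae were kept from the day of fertilization in medium with potassium perfluorohexane-1-sulfonate (PFHxS), a perfluoroalkyl surfactant, at 7.87, 14 or 25.1 µM, or in vehicle, and every group including the vehicle controls received 0.4% dimethyl sulfoxide (DMSO). Heads were taken at 5 or 4 days post fertilization (dpf), which gave 8 groups of 6 libraries, each made from a pool of 15 heads. The cut was made in front of the swim bladder, so a head sample holds every tissue that lies there. Nothing in the labels says that the pools of a group came from separate clutches, so the p-values measure the spread between these pools. The design asks how PFHxS at each concentration moved these genes at each age, and how they moved with age.

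Fatty acids are activated to acyl-CoAs by acyl-CoA synthetases, carried into mitochondria as acylcarnitines by the carnitine shuttle, and shortened step by step by dehydrogenases, hydratases and thiolases, whose electrons reach the respiratory chain through the electron transfer flavoprotein. Peroxisomes run a parallel spiral on very long and branched chains, with an oxidase that makes hydrogen peroxide and catalase that removes it. PPARs are nuclear receptors for fatty acids that switch on many of these genes, most strongly in liver, heart and muscle of mammals, and several perfluoroalkyl acids activate PPARα in rodents. In larval fish the yolk is the first source of lipid, and liver, intestine and pancreas mature as it is used up.

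The libraries held 16.6 to 39.2 M counts (M is 1e+06), with a median of 22.9 M. Composition differed between ages: the scaling factors (TMM, trimmed mean of M values) ran over 1.1 to 1.925 at 5 dpf and over 0.566 to 1.098 at 4 dpf. All 10 neuron markers were counted in every library. In 3 libraries, all at 7.87 µM, the 10 most counted genes held under 15% of the counts, namely F and I at 5 dpf and H at 4 dpf, and in the others up to 32%. Levels are given as CPM (counts per 1e+06 counts) after TMM scaling, as the lowest, median and highest of 6 libraries; they are not divided by transcript length and are compared between libraries only. Most members were well counted. The lowest were pex11a, with a mean count of 8.40 and no count in 7 of 48 libraries, acot8 with a mean count of 15.8 and plin2 with 21.5. The genes hadhaa and hadhb overlap by 479 bases on opposite strands of chromosome 20 (GRCz11, 47953047 to 47953525), and the sources used here do not say whether counting used strand, so their counts may be shared. How reads shared between close copies (cpt1aa and cpt1ab, acsl1a and acsl1b, hadhaa and hadhab) were assigned is likewise not given.

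Age moved many of these genes, as it did many of all genes tested, and PFHxS moved none of them past the threshold. In vehicle controls, 21 of the 38 were called higher at 5 dpf than at 4 dpf and 1 was called lower, where called means a Benjamini-Hochberg adjusted p below 0.05 in edgeR's quasi-likelihood test over all genes. Over all genes tested in the same comparison 21.7% were called higher, 20.2% lower and 41.9% in either direction. The members' median log2 fold change was 0.75, against 0.20 over all genes, and 28 members lay above that all-gene median. By role, the median log2 fold change was 1.31 for the PPAR targets (4 of 4 called higher), 0.97 for the peroxisomal genes (5 of 10 called higher), 0.71 for the mitochondrial spiral (9 of 14 called higher, 1 lower), 0.67 for the acyl-CoA synthetases (1 of 2 called higher), 0.35 for the carnitine shuttle (2 of 5 called higher) and 0.31 for the electron-transfer genes (none of 3 called). In bulk samples, more cells of a type and more RNA per cell cannot be told apart.

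**Figure D1:**
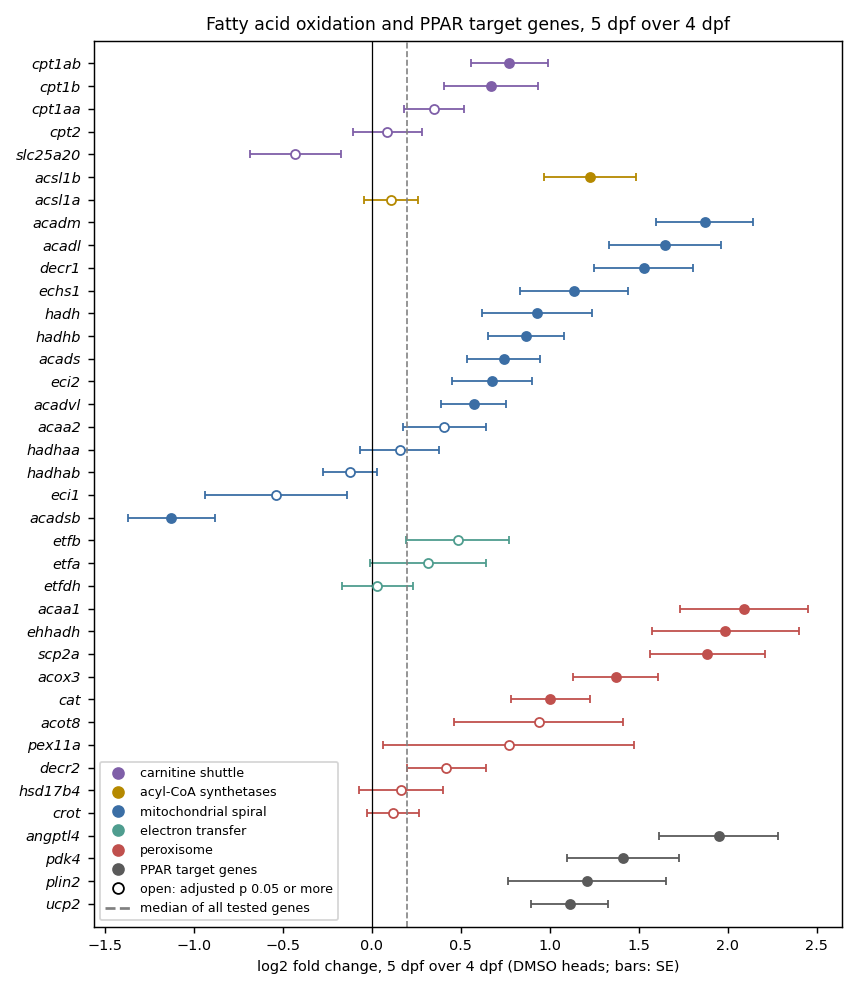
Log2 fold change of each of the 38 members at 5 dpf over 4 dpf in DMSO controls (x axis) with its standard error, members grouped by role down the page, filled points called at adjusted p below 0.05 and the dashed line at the median of all genes, 0.20. The peroxisomal thiolase acaa1 stands at 2.09 and acadsb at -1.13.

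Of the carnitine shuttle, cpt1ab, an outer-membrane carnitine palmitoyltransferase 1 (the gate of the pathway), had 28.6, 32.8 and 37.1 CPM at 5 dpf, against 15.6, 18.6 and 25.7 CPM at 4 dpf, in DMSO. Every 5 dpf library lay above every 4 dpf library, and the log2 fold change was 0.77 ± 0.22 (SE; adjusted p = 0.00396). The form expressed in muscle of mammals, cpt1b, had 9.52, 11.1 and 14.8 CPM at 5 dpf, against 2.87, 6.97 and 11.9 CPM at 4 dpf. Here the groups overlapped, with the highest 4 dpf library above the lowest of 5 dpf, and the log2 fold change was 0.67 ± 0.26 (adjusted p = 0.0385). That call is lost when any 1 of 8 libraries is left out (C, E, G or I at 5 dpf, B, F, H or I at 4 dpf), with values of 0.50 to 0.67. The third copy, cpt1aa, had 14.5, 18.1 and 18.3 CPM at 5 dpf, against 10.5, 13.8 and 16.3 CPM at 4 dpf, and its log2 fold change of 0.35 ± 0.17 did not pass (adjusted p = 0.0872). The inner-membrane enzyme cpt2 had a log2 fold change of 0.09 and the translocase slc25a20 of -0.43, neither called.

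Of the acyl-CoA synthetases, which activate long-chain fatty acids, acsl1b had 19.3, 23.7 and 27.1 CPM at 5 dpf, against 6.58, 9.92 and 13.7 CPM at 4 dpf. Its groups did not overlap, and it rose by a log2 fold change of 1.23 ± 0.26 (adjusted p = 0.000183). Its copy acsl1a had 8.24, 11.9 and 13.1 CPM at 5 dpf, against 6.51, 11.1 and 13.2 CPM at 4 dpf, a log2 fold change of 0.11 that was not called. Within a library the log2 ratio of acsl1b to acsl1a was 0.66, 1.07 and 1.25 at 5 dpf, against -0.55, -0.21 and 0.80 at 4 dpf, so the ratios overlapped between ages only at their edges.

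The largest rises of the mitochondrial spiral were in its dehydrogenases for medium and long chains. Medium-chain acyl-CoA dehydrogenase, acadm (chromosome 2, 26470070 to 26476151, GRCz11), had 39.2, 47.4 and 62.4 CPM at 5 dpf, against 10.4, 14.0 and 15.0 CPM at 4 dpf, in DMSO. Every 5 dpf library lay above every 4 dpf library by a wide gap, and the log2 fold change was 1.87 ± 0.27 (3.66-fold, adjusted p = 9.18e-07). Long-chain acyl-CoA dehydrogenase, acadl, had 18.9, 24.1 and 35.3 CPM at 5 dpf, against 5.44, 7.79 and 11.9 CPM at 4 dpf, again without overlap, for a log2 fold change of 1.65 ± 0.32 (adjusted p = 5.28e-05). The other 7 members of the spiral that rose were decr1 (1.53), which reduces double bonds of unsaturated chains, the hydratase echs1 (1.13), the hydroxyacyl-CoA dehydrogenase hadh (0.93), the trifunctional protein beta subunit hadhb (0.87), short-chain acads (0.74), the isomerase eci2 (0.67) and very long-chain acadvl (0.57), all as log2 fold changes. The alpha subunits hadhaa (0.16) and hadhab (-0.12), the isomerase eci1 (-0.54) and the thiolase acaa2 (0.41) were not called.

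One dehydrogenase went the other way. acadsb, the short/branched-chain acyl-CoA dehydrogenase, which in mammals also serves isoleucine breakdown, had 53.1, 83.5 and 118 CPM at 5 dpf, against 114, 171 and 242 CPM at 4 dpf. It fell to 0.458 of the 4 dpf level, a log2 fold change of -1.13 ± 0.25 (adjusted p = 0.00027), and 5 of the 6 libraries at 5 dpf lay below all libraries of 4 dpf. The log2 ratio of acadm to acadsb within a library, a contrast that library scaling cannot change, was -1.59, -0.66 and -0.15 at 5 dpf, against -4.06, -3.84 and -2.93 at 4 dpf. The ranges of this ratio were also apart at 7.87 µM (-0.81 to 0.28 at 5 dpf, against -4.71 to -2.10 at 4 dpf), at 14 µM (-1.56 to -0.11, against -4.78 to -3.17) and at 25.1 µM (-1.58 to -0.04, against -4.11 to -2.88). The ratio and the pair of synthetases above were chosen after their values were seen.

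**Figure D2:**
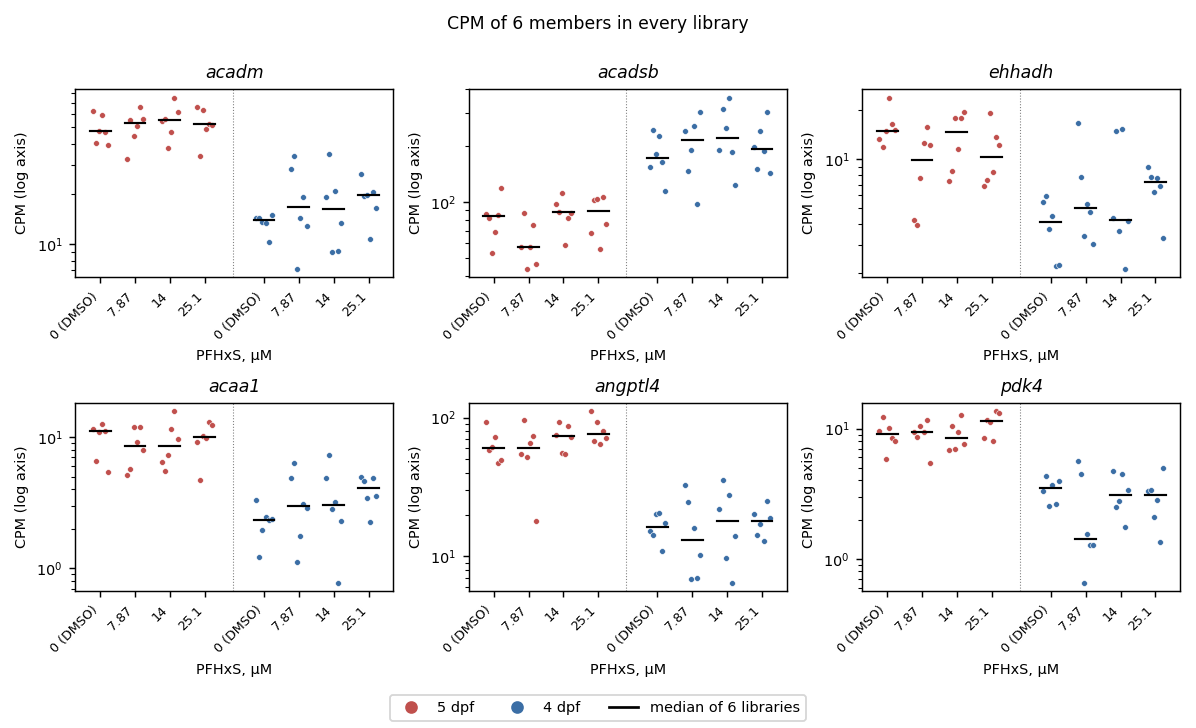
CPM on a log axis of 6 members in each of the 48 libraries, by PFHxS concentration in µM, with 5 dpf in the left block and 4 dpf in the right block of each panel; bars are medians of 6. For acadm the DMSO medians are 47.4 CPM at 5 dpf and 14.0 CPM at 4 dpf, for acadsb 83.5 and 171 CPM, and the exposed groups keep these age differences.

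None of the 3 electron-transfer genes was called in DMSO. Their log2 fold changes were 0.48 for etfb and 0.31 for etfa, the subunits of the electron transfer flavoprotein, and 0.03 for etfdh, which hands its electrons to ubiquinone.

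All 10 peroxisomal genes had positive log2 fold changes in DMSO, and 5 were called. The thiolase acaa1, which closes the peroxisomal spiral, had 5.42, 11 and 12.7 CPM at 5 dpf, against 1.22, 2.35 and 3.30 CPM at 4 dpf. The libraries of the 2 ages were apart, and the log2 fold change was 2.09 ± 0.36 (4.26-fold, adjusted p = 1.11e-05), the highest of the 38. The L-bifunctional enzyme ehhadh (chromosome 9, 12428226 to 12443727, GRCz11), a classical PPARα target in rodent liver, had 11.9, 15.0 and 23.8 CPM at 5 dpf, against 2.23, 4.13 and 5.99 CPM at 4 dpf. It too showed no overlap and rose by a log2 fold change of 1.99 ± 0.41 (adjusted p = 0.000152). The others called were scp2a, a sterol carrier with a thiolase form (1.88), the oxidase acox3 (1.37) and catalase, cat (1.00). The D-bifunctional enzyme hsd17b4, which does the same 2 steps as ehhadh on other substrates, had 123, 146 and 189 CPM at 5 dpf, against 89.2, 133 and 167 CPM at 4 dpf, with a log2 fold change of 0.17 that was not called. The carnitine octanoyltransferase crot (0.12), the reductase decr2 (0.42) and the thioesterase acot8 (0.94) were not called either. pex11a, a factor of peroxisome division, had 0.062, 0.368 and 0.593 CPM at 5 dpf, against 0, 0.138 and 0.648 CPM at 4 dpf, and its log2 fold change of 0.77 ± 0.71 (adjusted p = 0.389) was not called. Its counts were few, and the value was 1.51 without library B of 4 dpf and 0.54 without library E of 4 dpf.

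The 4 genes known as PPAR targets all rose in DMSO. angptl4, a secreted inhibitor of lipoprotein lipase, had 46.7, 59.8 and 93.1 CPM at 5 dpf, against 11, 16.3 and 20.6 CPM at 4 dpf, a log2 fold change of 1.95 ± 0.33 (adjusted p = 1.05e-05). pdk4, a kinase that restrains pyruvate oxidation, had 5.84, 9.02 and 12.3 CPM at 5 dpf, against 2.56, 3.48 and 4.35 CPM at 4 dpf, a log2 fold change of 1.41 ± 0.32 (adjusted p = 0.000373). In both genes the lowest 5 dpf library exceeded the highest 4 dpf library. ucp2, a carrier of the mitochondrial inner membrane, rose by a log2 fold change of 1.11 ± 0.22 (adjusted p = 6.34e-05), again with no overlap. plin2, which coats lipid droplets, had 0.695, 1.26 and 1.92 CPM at 5 dpf, against 0.255, 0.632 and 0.816 CPM at 4 dpf. Its groups overlapped, its log2 fold change was 1.21 ± 0.44 (adjusted p = 0.0254), and the call is lost without any 1 of 4 libraries (C or I at 5 dpf, G or I at 4 dpf), with values of 1.05 to 1.11.

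In the exposed groups fewer members were called higher with age than the 21 in DMSO. Markers of liver, intestine, exocrine pancreas and heart also rose less with age there (values below). Whether the roles differed was not tested. At 7.87 µM 13 members were called higher and 5 lower, where 26.9% of all genes were called higher, 23.7% lower and 50.5% in either direction. At 14 µM 15 were called higher and 2 lower, beside 22% of all genes higher, 19% lower and 40.9% in all. At 25.1 µM 15 were called higher and 4 lower, beside 25.8% of all genes higher, 21.2% lower and 47% in all. The members' median log2 fold changes were 0.38, 0.55 and 0.42 at 7.87, 14 and 25.1 µM, against 0.21, 0.22 and 0.26 over all genes. At 7.87 µM the mitochondrial spiral (6 of 14 positive, median -0.05) and the electron-transfer genes (1 of 3 positive, median -0.30) lay below the all-gene median, while the peroxisomal genes (8 of 10 positive, median 0.42) and the PPAR targets (4 of 4, median 1.30) lay above it. The electron-transfer mean there was high in single libraries of both ages, H of 4 dpf (6.34, group median 4.97) and I of 5 dpf (6.10, group median 4.85). At all 4 concentrations, vehicle included, 11 members were called higher (28.9%, against 11.2% of all genes): cpt1ab, acsl1b, acadm, acadl, decr1, acaa1, acox3, scp2a, angptl4, pdk4 and ucp2. Only acadsb was called lower at all 4 (2.63% of members, against 15.6% of all genes), and 9 members were called at none (23.7%, against 32.9% of all genes). These 4 comparisons use separate libraries.

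Of the PPAR targets, angptl4, pdk4 and ucp2 were called at every concentration. For angptl4 the log2 fold changes were 1.95, 1.88, 1.93 and 2.16 at 0, 7.87, 14 and 25.1 µM, and for pdk4 1.41, 1.86, 1.46 and 1.88. The mean log2 CPM of the 4 targets ran over 3.56 to 4.31 at 5 dpf, against 2.28 to 2.72 at 4 dpf, in DMSO, over 3.46 to 4.22 against 1.55 to 3.27 at 7.87 µM, over 3.54 to 4.32 against 1.43 to 3.23 at 14 µM, and over 3.85 to 4.23 against 2.26 to 2.90 at 25.1 µM. At no concentration did the ages overlap on this mean. The fall of acadsb was -1.13, -1.74, -1.44 and -1.25 at 0, 7.87, 14 and 25.1 µM, with every 5 dpf library below every 4 dpf library in the 3 exposed groups. The translocase slc25a20 was not called in DMSO but was called lower at 7.87 µM (-1.31), 14 µM (-0.92) and 25.1 µM (-0.83).

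**Figure D3:**
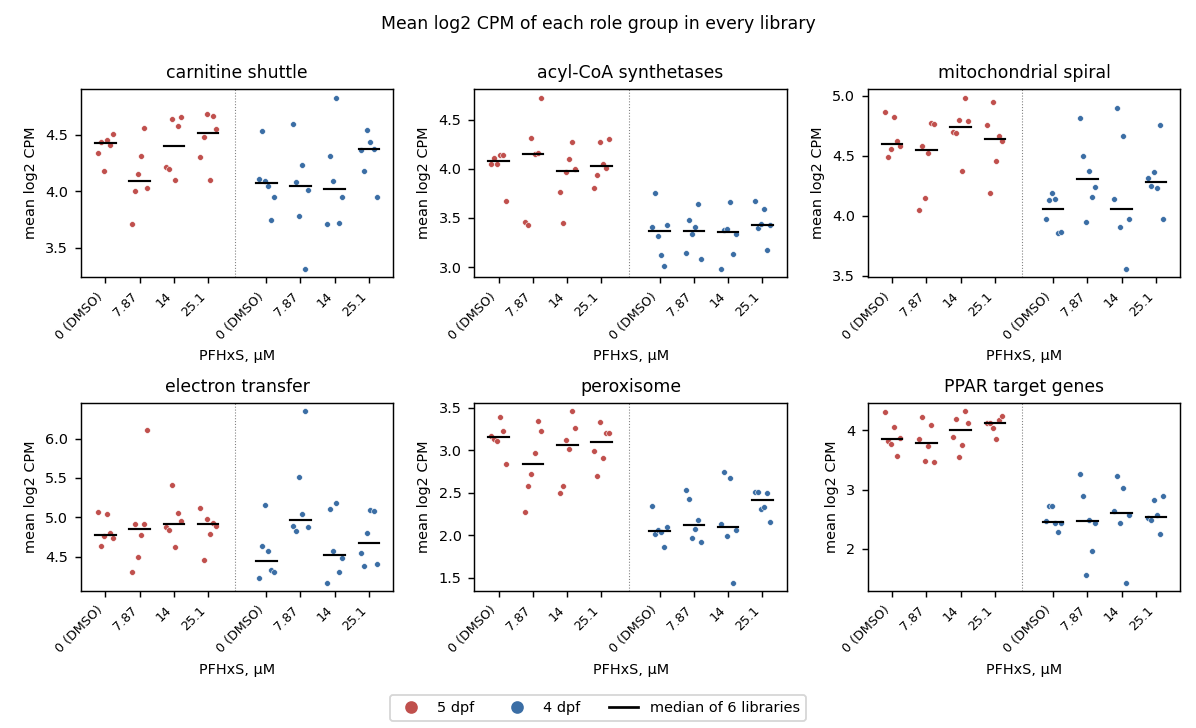
Mean log2 CPM over the members of each role group in each of the 48 libraries, by PFHxS concentration in µM, with 5 dpf in the left block and 4 dpf in the right block of each panel; bars mark medians. The mean of the 4 PPAR targets shows no overlap of ages at any concentration, and the electron-transfer genes have single high libraries at 7.87 µM.

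The peroxisomal enzyme ehhadh was called in DMSO and at no other concentration. Its log2 fold changes with age were 1.99, 0.46, 0.90 and 0.73 at 0, 7.87, 14 and 25.1 µM, the last 3 with adjusted p = 0.340, 0.0657 and 0.125. The call at 14 µM appears when B or D of 4 dpf (1.22 and 1.25) or A of 5 dpf (1.03) is left out, and that at 7.87 µM when A of 4 dpf is left out (0.95). cat, acads, hadh, eci2 and plin2 were likewise called only in DMSO, hadhab and etfdh were called lower at 7.87 and 25.1 µM, and hsd17b4 was called lower at 7.87 µM. Conversely, cpt1aa and acsl1a were not called in DMSO but were each called higher at 1 exposed concentration. For cpt1aa the log2 fold changes with age were 0.35, 0.40, 0.15 and 0.15 at 0, 7.87, 14 and 25.1 µM. pex11a was called higher at 25.1 µM alone, with 0.161, 0.611 and 0.976 CPM at 5 dpf, against 0, 0.128 and 0.271 CPM at 4 dpf (log2 fold change 2.01 ± 0.73, adjusted p = 0.0208), and it was also called at 7.87 µM when H of 4 dpf was left out (2.39). With a mean count of 8.40, pex11a passed the filter over all 48 libraries but not over those of 4 dpf alone. Its calls with age are therefore not independent of the filter. A difference in calls between concentrations is not a difference in effect: the test of whether the age change depends on concentration called none of the 38 members and 0% of all genes. At an unadjusted p below 0.05 it named acads (unadjusted p = 0.0149) and etfdh (unadjusted p = 0.0222), 2 of 38 members, beside 2.43% of all genes. That count became 4 without B of 14 µM at 4 dpf, 6 without H of 7.87 µM at 4 dpf and 7 without I of 7.87 µM at 5 dpf. The shares of all genes in those fits are not given. For acads the change with age differed from that in DMSO by -0.97, -0.47 and -0.40 on the log2 scale at 7.87, 14 and 25.1 µM, and for ehhadh by -1.53, -1.09 and -1.25 (unadjusted p = 0.0512), with adjusted p near 1.00 for both.

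Markers of other tissues that a head sample cut there can hold moved with the same age step. In DMSO 14 of 15 liver markers were called higher at 5 dpf, with a median log2 fold change of 3.13 and a summed level of 1870 to 3692 CPM at 5 dpf, against 119 to 1130 CPM at 4 dpf. The liver genes hpx and ahsg2 had no count in 3 and 5 of the 6 DMSO libraries at 4 dpf and were counted in every library at 5 dpf. Every other liver marker was counted in all DMSO libraries of both ages. The intestine list had 6 of 7 called higher (275 to 463 CPM summed at 5 dpf, against 38.8 to 110 CPM at 4 dpf), exocrine pancreas 11 of 11 (768 to 3399 CPM, against 12.1 to 204 CPM) and heart 6 of 6 (28.1 to 49.5 CPM, against 4.76 to 21.8 CPM). Skeletal muscle had 6 of 14 higher and 2 lower, and neurons 3 of 10 higher and 1 lower. Of the listed markers, 7 of 8 for intestine and 6 of 7 for heart were in the count table. Liver markers rose by 3.39 in mean log2 CPM in DMSO, against 1.96, 2.68 and 1.81 at 7.87, 14 and 25.1 µM. In the same order exocrine pancreas rose by 5.53, 2.32, 3.04 and 2.56. Intestine rose by 3.59, 2.43, 2.80 and 2.63 and heart by 1.80, 1.04, 1.41 and 1.44. At 5 dpf the summed pancreas level ran over 2.67 to 2829 CPM at 7.87 µM, 5.94 to 3599 at 14 µM and 84.3 to 3296 at 25.1 µM. The separate part of liver, intestine, pancreas or heart in the members' rise at any concentration was not tested.

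For liver, a further fit took the mean level of the liver markers as a term. With that term 18.4% of all genes were called between ages in DMSO, and of the members 5 were called higher and 2 lower, together the same share, 18.4%. At 7.87 µM 10 members were called higher and 9 lower with the term, against 13 and 5 without it (42.4% of all genes called with it). At 14 µM the members numbered 7 and 3, against 15 and 2 (26.3% of all genes). At 25.1 µM they numbered 11 and 7, against 15 and 4 (38.6% of all genes). In DMSO ehhadh had a log2 fold change of 0.19 with the term (adjusted p = 0.684), against 1.99 without it, and scp2a had 0.51, acox3 0.47 and cat 0.19. acaa1 had 1.01 (adjusted p = 0.0827) and pdk4 0.80 (adjusted p = 0.133), both no longer called. acadm kept 1.25 (adjusted p = 0.00410), acadl 1.21 (0.0285), decr1 0.95 (0.0381), angptl4 1.40 (0.0123) and ucp2 0.98 (0.0102), and these same 5 were called higher with the term at all 4 concentrations. acadsb had -1.47 and slc25a20 -1.22 with the term, and both were called lower with it at all 4 concentrations. The summed liver level did not overlap between ages in DMSO, so the term also takes up part of the age difference itself. Intestine, exocrine pancreas and heart markers rose over the same step, so the term cannot set liver apart from them.

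**Figure D4:**
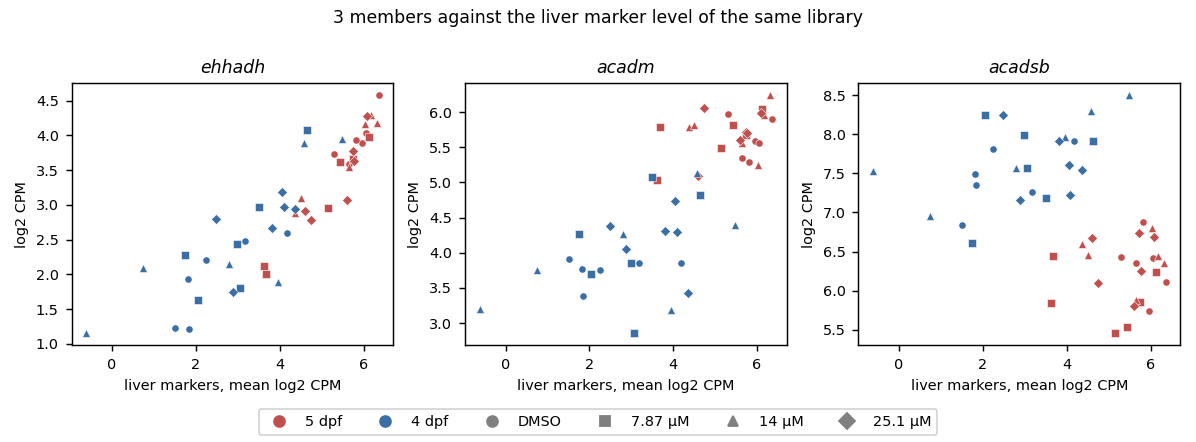
Log2 CPM of ehhadh, acadm and acadsb (y axis) against the mean log2 CPM of the liver markers (x axis) in each of the 48 libraries, coloured by age. In DMSO the mean liver level is 5.86 at 5 dpf and 2.46 at 4 dpf, and at 5 dpf acadm and ehhadh are higher and acadsb is lower.

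Library scaling sets the size of every age difference. Scaled by library totals alone, the all-gene median log2 fold change between ages was 0.88 in DMSO, against 0.20 with TMM, and 1.06, 1.00 and 1.02 at 7.87, 14 and 25.1 µM. On that scale 29 members lay above the all-gene median in DMSO, against 28 with TMM, and the share of all genes called is not given. There 34 members were called higher in DMSO and 1 lower. The latter was acadsb at -0.41, also called lower at the other 3 concentrations. slc25a20 turned to 0.28 in DMSO and was not called at the others, hadhab turned to 0.46 at 7.87 µM and 0.34 at 25.1 µM, and hsd17b4 turned to 0.37 at 7.87 µM. The falls of these 3 genes and of etfdh (0.00 at 7.87 µM and 0.29 at 25.1 µM) therefore hold relative to the other genes, as TMM measures them.

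No member was called for PFHxS at any concentration or age. edgeR's quasi-likelihood test called 0 members, as did DESeq2 and limma on the authors' normalized values, and edgeR called 0% of all genes in each of the 6 comparisons. At an unadjusted p below 0.05 the members numbered 10, 2 and 1 at 7.87, 14 and 25.1 µM at 4 dpf, beside 12%, 5.05% and 2.61% of all genes, and 7, 0 and 0 at 5 dpf, beside 4.69%, 0.729% and 0.671% of all genes. The 3 comparisons of an age share their DMSO libraries. Small counts of this kind turned on single libraries. At 14 µM and 4 dpf the 2 became 0 without B, 1 without D or without F, H or I of DMSO, and 4 without I of 14 µM. At 25.1 µM and 4 dpf the 1 became 0 without B, C or F or without F of DMSO, 3 without E and 5 without H. At 25.1 µM and 5 dpf the 0 became 1 without G or H or without C or I of DMSO. The counts turned on the settings as well. At 25.1 µM a fit of the 12 libraries of its groups alone gave 6 at either age. Over the settings that leave out no single library, the counts ran over 4 to 12 at 7.87 µM and 4 dpf, the lowest with a term for the first 32 against the last 16 columns of the count table, and over 3 to 12 at 7.87 µM and 5 dpf, the highest on the authors' quantile-normalized values. At 14 µM they ran over 0 to 2 at 4 dpf and stayed at 0 at 5 dpf. At 4 dpf the first 32 columns held 6 libraries of 7.87 µM and 2 of DMSO, and the last 16 held 0 and 4. A difference between these column blocks therefore cannot be fully told apart from that comparison. The shares of all genes above belong to the main fit. Shares for the left-out libraries and other settings are not given, so those counts are not set against them.

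At 25.1 µM and 4 dpf, 34 of 38 members lay above 0 on the log2 scale, beside 48.6% of all genes. Their median was 0.26, against -0.01 over all genes. The members were read from the same libraries, so they are not separate observations. All 5 carnitine shuttle genes were positive (median 0.23), as were all 14 of the mitochondrial spiral (0.26) and 8 of 10 peroxisomal genes (0.35). The group of angptl4, plin2, pdk4 and ucp2 had 3 of 4 positive and a median of 0.13. acaa1 had 2.24, 4.10 and 4.97 CPM at 25.1 µM, against 1.22, 2.35 and 3.30 CPM in DMSO. The upper libraries at 25.1 µM lay above all DMSO libraries but the groups overlapped, and the log2 fold change of 0.80 ± 0.36 (unadjusted p = 0.0303) had an adjusted p of 1.00 and a 95% interval of 0.08 to 1.52. ehhadh had 3.28, 7.24 and 8.97 CPM at 25.1 µM, against 2.23, 4.13 and 5.99 CPM in DMSO (log2 fold change 0.76 ± 0.41, adjusted p = 1.00). acadm had 10.7, 19.6 and 26.5 CPM at 25.1 µM, against 10.4, 14.0 and 15.0 CPM in DMSO (0.49 ± 0.27, adjusted p = 1.00). In these 2 genes the lowest exposed library lay within the DMSO range and the median above it.

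Liver markers stood higher in the same libraries: 14 of 15 were positive at 25.1 µM and 4 dpf, beside 48.6% of all genes, with none called. Their summed level was 296 to 1477 CPM at 25.1 µM, against 119 to 1130 CPM in DMSO, and their mean log2 CPM 3.61 against 2.46. With the liver term the members' median there was 0.08. Exocrine pancreas markers were positive in 11 of 11 (median 1.73), intestine in 7 of 7 (0.92), skeletal muscle in 13 of 14 (0.61) and heart in 5 of 6 (0.67). The liver term cannot set liver apart from these tissues, and the part of each was not tested. At 5 dpf the liver list ran the other way, with 2 of 15 positive at 25.1 µM (median -0.43), beside 52.2% of all genes.

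At 4 dpf 27 of 38 members were positive at 7.87 µM and 28 at 14 µM, beside 55.9% and 50.7% of all genes. The member medians were 0.22 at both concentrations, against 0.05 and 0.00 over all genes. The median at 14 µM came to 0.06 without library B and to 0.06 without library D, and the liver term gave 0.09 there and 0.16 at 7.87 µM. The median at 7.87 µM came to 0.12 without library A, to 0.08 with the term for table columns and to 0.08 on the authors' quantile-normalized values, where the all-gene median was -0.04. At 14 µM the 3 members with the smallest p were acads, ehhadh and acaa1. acads had 5.64, 12.3 and 26.8 CPM at 14 µM, against 8.94, 9.96 and 12.7 CPM in DMSO, a log2 fold change of 0.49 ± 0.20 (unadjusted p = 0.0200, adjusted p = 0.971). Its exposed libraries lay both above and below the whole DMSO range, and without library B the value was 0.23. ehhadh had 2.14, 4.28 and 15.4 CPM (log2 fold change 0.88 ± 0.41) and acaa1 0.778, 3.01 and 7.34 CPM (0.63 ± 0.36) at 14 µM, with adjusted p = 0.971 for both. Without library B these were 0.56 for ehhadh and 0.29 for acaa1, and without library D ehhadh had 0.54. For ehhadh the median was close to the 4.13 CPM of DMSO, and the highest libraries, led by D, carried the fold change. Libraries B and D were also the highest on the peroxisomal mean log2 CPM at 14 µM (2.74 and 2.67), where H was lowest (1.44), and on the liver mean D was highest (5.48) and H lowest (-0.62).

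**Figure D5:**
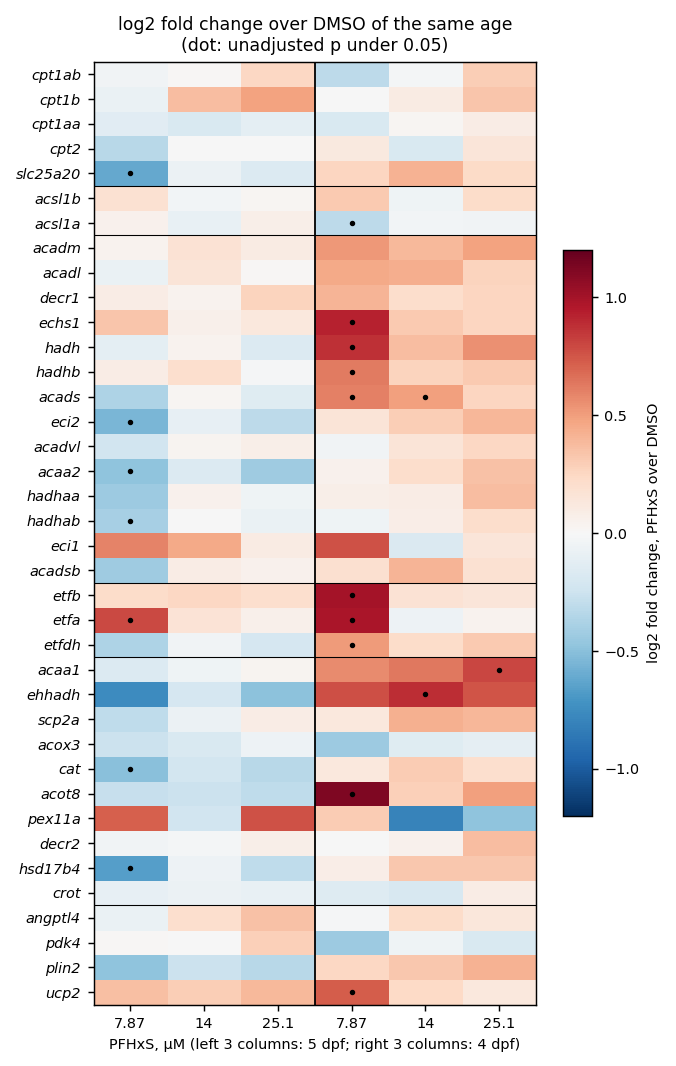
Heat map of the log2 fold change of PFHxS over DMSO for the 38 members (down the page, by role) in the 6 exposure comparisons, with 5 dpf in the left 3 columns and 4 dpf in the right 3; a dot marks an unadjusted p below 0.05. No cell passes an adjusted p of 0.05; 10 members carry a dot at 7.87 µM and 4 dpf, and 7 at 7.87 µM and 5 dpf.

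At 7.87 µM and 4 dpf the smallest p values belonged to etfb, ucp2 and echs1. etfb had 35.9, 39.8 and 143 CPM at 7.87 µM, against 22.1, 26.6 and 50.3 CPM in DMSO, a log2 fold change of 1.00 ± 0.29 (unadjusted p = 0.00134, adjusted p = 0.209). ucp2 had 39.6, 43.2 and 99.9 CPM, against 24.3, 32.2 and 41.3 CPM in DMSO (0.73 ± 0.21, adjusted p = 0.209), and echs1 had 3.10, 4.21 and 10.4 CPM, against 1.47, 2.68 and 4.17 CPM (0.93 ± 0.30, adjusted p = 0.225). In all 3 genes library H was far above the rest of its group, and every other library stood above the DMSO median. Library H is among the 3 in which the most counted genes held the smallest share. Without those 3 libraries the log2 fold changes were 0.53 for etfb, 0.44 for ucp2 and 0.59 for echs1. The members at an unadjusted p below 0.05 then numbered 6 at 4 dpf and 3 at 5 dpf, with none called. The share of all genes in that fit is not given. Conversely, without library F of the 4 dpf DMSO group, etfb was the only member called at 7.87 µM (log2 fold change 1.2). For that fit too, the share of all genes called is not given.

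At 5 dpf 12, 17 and 20 of 38 members were positive at 7.87, 14 and 25.1 µM, beside 51.8%, 53.7% and 52.2% of all genes. The member medians were -0.13, -0.01 and 0.02, against 0.01, 0.02 and 0.01 over all genes. At 7.87 µM the median was -0.24 without library H, -0.06 without library C and 0.09 with library totals alone, where the all-gene median was 0.24. The 7 members below an unadjusted p of 0.05 at 7.87 µM were slc25a20, hadhab, eci2, acaa2, hsd17b4 and cat, all lower, and etfa, higher. hsd17b4 had 63.2, 86.4 and 147 CPM at 7.87 µM, against 123, 146 and 189 CPM in DMSO, a log2 fold change of -0.67 ± 0.24 (unadjusted p = 0.00711, adjusted p = 0.986). hadhab had 37.5, 49.1 and 66.1 CPM at 7.87 µM, against 59, 65.8 and 73.2 CPM in DMSO (-0.40 ± 0.15), and eci2 13.1, 16.2 and 24.5 CPM, against 23.4, 25.9 and 31.6 CPM (-0.55 ± 0.22), with adjusted p = 0.986 for both. In each of the 3 genes most libraries at 7.87 µM were below the DMSO range and the highest lay inside it. Liver markers were lower there too, 3 of 15 being positive with a median of -0.60, and the members' median with the liver term was 0.00. The part of liver or of any other tissue in this was not tested. The count of 7 became 4 without library C of the exposed group, where the share of all genes is not given. etfa was high in a single library, I, at 105 CPM, where the next of the group had 33.0 CPM and the DMSO group had 17.8, 22.1 and 32.8 CPM.

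At 14 and 25.1 µM and 5 dpf the smallest p values were those of cpt1b, ucp2, eci1 and acaa2. cpt1b had 9.49, 17.2 and 20.7 CPM at 25.1 µM, against 9.52, 11.1 and 14.8 CPM in DMSO, a log2 fold change of 0.48 ± 0.26 (unadjusted p = 0.0715, adjusted p = 1.00), and 8.03, 15.1 and 18.8 CPM at 14 µM (0.37). ucp2 had 77.4, 91.0 and 111 CPM at 25.1 µM, against 54.7, 66.0 and 85.7 CPM in DMSO (0.39 ± 0.21), and 56.8, 81.6 and 111 CPM at 14 µM (0.30). acaa2 had 29.2, 40.9 and 52.7 CPM at 25.1 µM, against 44.5, 53.0 and 67.3 CPM in DMSO (-0.43 ± 0.23), and eci1 2.03, 2.66 and 5.26 CPM at 14 µM, against 1.77, 2.35 and 2.87 CPM (0.46, and 0.26 without library E of 14 µM). All 4 genes overlapped between exposed and vehicle libraries.

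The intervals show what sizes of change remain possible at 25.1 µM. At 4 dpf the 95% intervals of the log2 fold change were -0.25 to 0.42 for cpt1aa, -0.20 to 0.87 for cpt1b, -0.05 to 1.02 for acadm, -0.06 to 1.58 for ehhadh, -0.51 to 0.79 for angptl4, -0.83 to 0.46 for pdk4, -0.51 to 1.35 for plin2 and -2.05 to 1.09 for pex11a. At 5 dpf they were -0.45 to 0.22 for cpt1aa, -0.04 to 1.01 for cpt1b, -0.43 to 0.62 for acadm, -1.28 to 0.29 for ehhadh, -0.29 to 0.99 for angptl4, -0.33 to 0.89 for pdk4, -1.18 to 0.51 for plin2 and -0.54 to 2.06 for pex11a. The widest belong to the genes with the fewest counts, pex11a and plin2, and next to ehhadh.

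A straight slope on concentration called no member at either age. Of 37 members tested at 4 dpf (pex11a fell below the filter there), none had an unadjusted p below 0.05, beside 0.926% of all genes, and 0% of genes passed the adjusted threshold. The smallest p were those of decr2 (slope 0.15 ± 0.08 on the log2 scale per 10 µM, unadjusted p = 0.0782) and acaa1 (0.29, unadjusted p = 0.0783). Of the 37 slopes 30 were positive, a count without the share of all genes beside it. All 37 come from the same libraries, so they are not separate observations. The count of 0 became 1 without A or B of 7.87 µM, H of 14 µM, E or H of 25.1 µM or I of DMSO. At 5 dpf 1 member, cpt1b, had an unadjusted p below 0.05 (slope 0.22 ± 0.08, unadjusted p = 0.00913, adjusted p = 1.00), beside 2.06% of all genes, 2 members doing so without C, F or I of 7.87 µM or C of DMSO, and 0.0049% of genes passed the adjusted threshold. The cpt1b medians at 5 dpf were 11.1, 10.2, 15.1 and 17.2 CPM at 0, 7.87, 14 and 25.1 µM.

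Other genes of the same pathways, from lists drawn up beside the members, gave a mixed picture with age and no call with exposure. Only listed genes that were in the count table and passed the filter are counted. These were 28 of 33 for fatty acid breakdown, 28 of 28 peroxisomal genes and 17 of 22 PPAR targets. In DMSO 10 of 28 further genes of fatty acid breakdown were called higher at 5 dpf and 2 lower, together 42.9%, close to the 41.9% of all genes (median log2 fold change 0.37), with acat1, a ketone body and isoleucine thiolase, at 23.4 against 9.01 mean CPM (1.38 ± 0.22, adjusted p = 4.84e-06) and the carnitine transporter slc22a5 at 5.50 against 33.8 mean CPM (-2.62 ± 0.32, adjusted p = 5.56e-08). Of 28 further peroxisomal genes, 10 were called higher and 5 lower (53.6% called, median 0.53), and the assembly factor pex6 was among the lower ones, at 5.91 against 11.7 mean CPM (-0.99 ± 0.17, adjusted p = 7.58e-06). Of 17 further genes known as PPAR targets, 12 were called higher and 1 lower (76.5% called, median 1.63), led by the uncoupling protein gene ucp1, with 254 against 11 mean CPM (4.54 ± 0.53, adjusted p = 2.34e-08), and the pyruvate dehydrogenase kinase pdk2b, with 27.8 against 2.16 mean CPM (3.68 ± 0.45, adjusted p = 5.56e-08). No gene of these lists was called in any exposure comparison. At 4 dpf, 6, 6 and 4 of the 28 fatty acid genes had an unadjusted p below 0.05 at 7.87, 14 and 25.1 µM. Over all genes the shares were 12%, 5.05% and 2.61%. The 28 peroxisomal genes had 5, 0 and 0, and the 17 PPAR targets 1, 1 and 0. How these counts turn on single libraries is not given.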

How the data were processed

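Each library was 1 pool of heads. The deposited count table holds estimated counts (expected counts) per gene made by the authors, of which 77.5% are whole numbers to within 1e-09, and a deposited second table holds the authors' quantile-normalized log2 values. STAR 2.5.3a, Partek 8.0.19.0428 and the build GRCz11 are named, without their roles, per the submitters' processing notes. Counts were rounded, filtered with filterByExpr, scaled by TMM and fitted with edgeR 4.0.16 (R 4.3.3) as 8 group means over 48 libraries by the quasi-likelihood test, with p-values adjusted over all genes, and the scripts were tested on simulated data. Log2 CPM used a prior count of 2, a standard error is the log2 fold change over the root of F, and DESeq2 1.42.0 and limma 3.58.1 were alternatives. The members and lists were chosen with earlier results of these data known. Named in full were the 3 members with the smallest p in each exposure comparison, the 2 called members with the largest change per role group between ages in DMSO, and cpt1aa, cpt1b, acadm, ehhadh, pex11a, angptl4, plin2 and pdk4; other members named were chosen after their values were seen. All 38 symbols matched the RefSeq gene table. The letter in the library titles was taken as replicate, and its meaning is not given. Deviations of same-lettered libraries correlated above 0.1 in every shared letter for 25.1 µM against DMSO at 4 dpf (4 letters, 0.119 to 0.253), where blocking changed no call. At 4 dpf they did so in 4 of 5 letters for 7.87 µM (-0.0866 to 0.33) and in 2 of 3 for 14 µM (0.0272 to 0.36). In the other comparisons they did so in at most 2 letters. No pair of libraries within a group looked like repeats of 1 library. Which sequencing pool each library was in is not given.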

Additional observations from a re-analysis of the deposited data

Results flagged for a closer look

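Among 216 groups of 6 libraries (21 members and 6 role means, in log2 CPM), 12 held a library far from the others by Dixon's criterion, and chance alone gives about 1 in 20. At 7.87 µM and 5 dpf library I was highest for eci1 (3.46, the next being 1.65), etfb (6.79 and 5.51) and the electron-transfer mean (6.1 and 4.91) and lowest for angptl4 (4.17, the next being 5.7). At 7.87 µM and 4 dpf library H was highest for ucp2 (6.64, the next being 5.68). Both are among the 3 libraries with a small share of counts in the most counted genes. At 25.1 µM and 5 dpf library D was lowest for acaa1 (2.26 and 3.22). At 25.1 µM and 4 dpf library H was lowest for acaa2 (5.18 and 5.7) and ehhadh (1.75 and 2.67). At 14 µM and 5 dpf library G was lowest for acads (3.55 and 4.12). In DMSO, library I of 5 dpf was lowest for the acyl-CoA synthetase mean (3.67 and 4.05), H of 4 dpf was lowest for acadm (3.39 and 3.75), and F of 4 dpf was highest for eci1 (2.97 and 1.74).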

How the results depend on the processing

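Scaling by library totals alone gave 35, 32, 35 and 32 members called between ages at 0, 7.87, 14 and 25.1 µM, and the liver term gave 7, 19, 10 and 18. For the age comparisons, shares of all genes called are given only for the main fit and the liver term. With 1 library left out of the main fit the counts ran over 20 to 22, 16 to 21, 15 to 21 and 16 to 19. The exposure counts stayed at 0 except 0 to 1 at 7.87 µM and 4 dpf. The title letter as a replicate block, which no label supports as a pairing, gave 23, 18, 17 and 18 members between ages and 0 in every exposure comparison. With the liver term the sign turned for the age change of cpt1ab (-0.0468) and cpt1b (-0.0611) in DMSO, of cpt1aa at 14 µM (-0.0488) and of ehhadh at 7.87, 14 and 25.1 µM (-0.59, -0.36 and -0.30), and for angptl4 at 25.1 µM and 4 dpf (-0.0347, and -0.000700 with the replicate block). plin2 between ages at 25.1 µM was -0.0453 on the authors' quantile-normalized values, and pex11a at 25.1 µM and 4 dpf ran over -0.81 to 0.26, the highest without DMSO library B. The cause was not tested. Of the other settings for named members, 787 kept direction and side of the threshold, 19 gained and 15 lost the call. Within the first 32 and last 16 columns of the count table, which no label names as a batch, the members' medians were 0.63 and 0.60 for age in DMSO and 0.32 and 0.11 for 25.1 µM at 4 dpf, but 0.23 and -0.23 for 14 µM at 4 dpf. In DMSO the first 32 columns held 5 libraries of 5 dpf and 2 of 4 dpf, and the last 16 held 1 and 4. The 0.60 thus rests on 1 library of 5 dpf. With a term for these columns 18 members were called higher with age in DMSO and 1 lower. Their median was then 0.64, against 0.21 over all genes. For 7.87 µM at 4 dpf only the first 32 columns held both groups, 6 exposed and 2 DMSO libraries, with a median of 0.13. Settings added after seeing the data were this column term, leaving out the 3 libraries and robust dispersion. Motifs and protein ends were not examined, since no sequences were used. Depth limits pex11a, acot8 and plin2.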

Other observations

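The ratio of the peroxisomal to the mitochondrial thiolase was higher at 5 than at 4 dpf in its medians, at each concentration. Within a library the log2 ratio of acaa1 to acaa2 was -3.61, -2.39 and -2.07 (lowest, median, highest) at 5 dpf, against -5.22, -3.99 and -3.80 at 4 dpf, in DMSO, and these ranges did not overlap. At 7.87 µM the ratio was -2.72, -2.35 and -1.16 at 5 dpf, against -4.98, -3.79 and -2.80 at 4 dpf, where the lowest library of 5 dpf was just above the highest of 4 dpf. At 14 µM the ages overlapped, with -3.18, -2.56 and -1.55 at 5 dpf, against -4.96, -3.77 and -2.99 at 4 dpf. At 25.1 µM they did not, with -3.12, -1.93 and -1.65 at 5 dpf, against -4.48, -3.58 and -3.32 at 4 dpf. For the outer-membrane transferases the log2 ratio of cpt1ab to cpt1aa in DMSO was 0.77, 0.88 and 1.14 at 5 dpf, against 0.25, 0.36 and 0.84 at 4 dpf, with a small overlap. Both ratios were picked after their values were seen and carry no test.

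The mean log2 CPM of the role groups differed by unequal steps between 5 and 4 dpf at each concentration. For the peroxisomal genes the difference was 1.07, 0.67, 0.81 and 0.67 at 0, 7.87, 14 and 25.1 µM, for the mitochondrial spiral 0.63, 0.13, 0.53 and 0.29, and for the carnitine shuttle 0.31, 0.12, 0.30 and 0.16. For the PPAR targets it was 1.39, 1.37, 1.41 and 1.5, and for the electron-transfer genes 0.30, -0.33, 0.33 and 0.14. Whether these steps differ between concentrations was not tested on the means.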
